A study of Mus musculus with 6 samples.

Results

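The synaptotagmins are membrane proteins with paired calcium-binding domains, most of them carried on secretory vesicles, where several act as the calcium sensors that trigger fusion with the plasma membrane. This account follows 10 synaptotagmin genes (Syt1, Syt2, Syt3, Syt4, Syt5, Syt6, Syt7, Syt9, Syt10 and Syt11) on 6 microarrays of sorted embryonic mouse spinal cord cells. The family was selected on measured results of these arrays, where Syt10 was already known to differ between the sorted fractions. The levels in the sorted fractions are therefore given as a description without a test. Members were taken as every probe whose RefSeq accession belongs to a listed gene. This gave 12 probes of 9 genes, among 55681 probes and 19897 named genes in all; no probe was matched to Syt5.

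All embryos were at E12.5 and carried Hb9::GFP, a reporter under the promoter of the motor neuron gene Hb9 (Mnx1). Spinal cords were dissociated with trypsin and sorted by flow cytometry into GFP-on cells, called motor neurons here, and GFP-off cells, called non-motor neurons, a fraction that holds all other spinal cord cells. The groups were mir-17~92 -/- ; Hb9::GFP motor neurons (2 arrays), WT ; Hb9::GFP motor neurons (also 2), and 1 array each of non-motor neurons from mir-17~92 -/- ; Hb9::GFP and from WT ; Hb9::GFP embryos. Whether replicates came from separate embryos or pools is not given in the sources used here, so p-values measure only the spread between these arrays, which may be technical. Cy3-labelled copies of the total RNA were read on Agilent mouse gene expression arrays, 1 colour per array.

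In neurons, Syt1 and Syt2 are known as fast sensors of synchronous transmitter release, and Syt7 as a slower, high-affinity sensor of asynchronous release. Syt3, Syt6 and Syt10 belong to a subgroup whose members are joined by disulphide bonds. Syt10 is known in mouse olfactory bulb neurons as the sensor for secretion of insulin-like growth factor 1. No role is named here for Syt5 and Syt9. Syt4 and Syt11 lack calcium binding in the first of the paired domains; Syt4 sits on dense-core vesicles and Syt11 is known as a brake on vesicle endocytosis.

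The genotype label refers to a cluster of 6 microRNA hairpins on chromosome 14. Their main mature products, from RefSeq on GRCm38.p6, are printed because they are what the knockout should lack. Capitals mark the seed, bases 2 to 8, in which the 6 sequences fall into 4 kinds; miR-17-5p shares its seed with miR-20a-5p, and miR-19a-3p with miR-19b-3p.
mmu-miR-17-5p: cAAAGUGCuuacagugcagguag
mmu-miR-18a-5p: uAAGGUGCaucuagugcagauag
mmu-miR-19a-3p: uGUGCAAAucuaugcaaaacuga
mmu-miR-20a-5p: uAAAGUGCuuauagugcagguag
mmu-miR-19b-3p: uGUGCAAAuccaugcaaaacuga
mmu-miR-92a-3p: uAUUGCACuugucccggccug

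Syt10 was the synaptotagmin with the largest differences in both comparisons below, and its promoter window is therefore printed. It spans 250 bases before to 50 bases after the RefSeq start, chr15:89841811-89842110 on the minus strand of GRCm38.p6, with 70.7% G or C. Capitals mark matches, on either strand, to the core of the CREB site, TGACG (1 match), and to the GC box, GGGCGG (3 matches, all on the opposite strand and so read as CCGCCC). These letters occur in 20.8% and 35.7% of 32851 promoter windows of the same length. None of TAATTA (a homeodomain core, in 5.29% of windows), ATTGAT (a Onecut core, in 7.54%) or TATAAA (in 13.6%) was in the Syt10 window.
Syt10 promoter: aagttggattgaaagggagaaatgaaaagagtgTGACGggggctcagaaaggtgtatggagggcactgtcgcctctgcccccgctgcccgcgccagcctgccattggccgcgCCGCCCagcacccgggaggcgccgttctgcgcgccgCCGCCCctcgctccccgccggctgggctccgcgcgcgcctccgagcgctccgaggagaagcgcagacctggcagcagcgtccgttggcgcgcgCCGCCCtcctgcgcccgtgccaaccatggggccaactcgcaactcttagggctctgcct
The search covered 11 windows of 7 of the listed genes, that of Syt10 included. Windows of Syt4, Syt5 and Syt7 were not searched. Among the other windows, TGACG was found in 1 window of Syt2 and TAATTA in 1 window of Syt6. The GC box was common among them: it was found in windows of Syt1, Syt2, Syt6, Syt9 and Syt11, and not in that of Syt3. A match is a description of the letters and not a binding site.

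The arrays differed in brightness. In motor neurons the 75th percentile of the signal came to 59.9 and 506 on knockout-labelled arrays, against 48.5 and 64.5 on wild-type-labelled arrays. In non-motor neurons it came to 550 for the knockout label, against 340 for the wild-type label. Between 41.0% and 62.3% of spots were well above background. Both wild-type-labelled motor neuron arrays stood apart from all others: over the 19075 probes above background on every array they correlated at 0.736 to 0.903 with arrays of other groups, while the remaining arrays correlated at 0.930 to 0.984 among themselves. All arrays shared 1 slide; row 1 held both knockout-labelled motor neuron arrays and row 2 the other 4, so in motor neurons the genotype label cannot be told apart from the slide row. Mir17hg, the host transcript of the deleted cluster, went against the genotype labels: its log2 level was 4.55 and 4.78 in knockout-labelled motor neurons, against -2.38 (below the background call) and 2.73 in wild-type-labelled motor neurons. In non-motor neurons it was 4.62 under the knockout label, against -1.23 under the wild-type label. Arrays are therefore named by their label, and every direction between genotypes below is a direction between labels. Of 9 motor neuron markers, 8 were measured (Mnx1 itself had no matched probe). Their summed level was 33.5 and 39.9 in knockout-labelled and 12 and 8.14 in wild-type-labelled motor neurons, against 5.19 and 3.42 in non-motor neurons labelled knockout and wild type. The markers did not share the difference between labels in motor neurons. In log2, knockout minus wild type, it was 4.44 for Prph, 2.57 for Isl1, 2.38 for Slc5a7 and 1.97 for Isl2. It was 0.47 for Slc18a3, 0.37 for Lhx3, -0.34 for Chat and -0.35 for Lhx4. Prph is also in the list of neural crest and sensory neuron markers used below.

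Levels are given as log2 of the processed signal, minus the 75th percentile of the array; 0 is therefore the level that 75% of the probes lie under. Differences between groups are differences of these log2 levels, 1 being a doubling. Probes differ in how strongly they bind, so a level is compared only with levels of the same probe. Probes called well above background by at least 2 arrays were tested, 33264 in all, among them 10 synaptotagmin probes of 8 genes.

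Synaptotagmin signals were mostly higher in motor neurons than in non-motor neurons, by far the most for Syt10. Of the 10 tested probes, 8 were higher by at least 1 log2 with no overlap between the 4 motor neuron and the 2 non-motor-neuron arrays, and 0 were lower by that rule. Among all 33264 probes, 6.23% were higher and 8.44% lower by the same rule; since the list was drawn up with this contrast known, nothing is read from the excess. The median difference was 2.03 over the synaptotagmin probes and -0.09 over all probes. In bulk samples, fewer cells of a type and less RNA per cell cannot be told apart.

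Syt10 (probe A_51_P318830) had log2 levels of 3.25 and 5.67 in knockout-labelled motor neurons and 8.01 and 8.73 in wild-type-labelled motor neurons, against 0.16 in knockout-labelled and -1.29 in wild-type-labelled non-motor neurons. All 4 motor neuron arrays lay above both non-motor-neuron arrays, and the 2 genotype labels did not overlap within motor neurons. The mean difference of motor neurons minus non-motor neurons was 6.99, a 127-fold higher signal. It was 4.31 within the knockout-labelled arrays and 9.66 within the wild-type-labelled ones.

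Syt1, the main fast sensor, had levels of 3.72 and 3.42 in knockout-labelled and 4.26 and 4.6 in wild-type-labelled motor neurons, against 1.52 and 2.15 in non-motor neurons labelled knockout and wild type. The sorted fractions did not overlap, and the difference of 2.17 was of like size within each label, 2.05 in knockout-labelled and 2.29 in wild-type-labelled arrays. Syt2, another fast sensor, was dim, as was Syt9. Syt2 was above background only in knockout-labelled motor neuron replicate 2 (-3.79) and in knockout-labelled non-motor neurons (-4.55), with signals between -6.03 and -3.26 on the other arrays, and the fractions overlapped. Syt9 had levels of -1.56 and -1.34 in knockout-labelled and -1.74 and -2.03 in wild-type-labelled motor neurons, against -2.93 and -2.48 in non-motor neurons labelled knockout and wild type, a difference of 1.04. The lowest level called well above background was between -2.76 and -2.10 on the 3 dim motor neuron arrays and close to -4.97 on the other 3, so the Syt9 level of -2.93 in non-motor neurons lies under the range measured on the dim arrays, and that of -2.48 within it on knockout-labelled motor neuron replicate 1 alone.

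Syt3 and Syt6, named above in a subgroup with Syt10, had 2 probes each. The brighter Syt3 probe (A_55_P1975973) had levels of 0.26 and -0.72 in knockout-labelled and 0.90 and 0.64 in wild-type-labelled motor neurons, against -2.96 and -2.95 in non-motor neurons labelled knockout and wild type, a difference of 3.22. Next to Syt10 this was the largest difference among the members. The dimmer Syt3 probe (A_55_P2048441) gave 1.89, with wild-type-labelled motor neuron replicate 1 not above background. Its levels of -4.27 and -3.59 in non-motor neurons labelled knockout and wild type lie under the range measured on the 3 dim motor neuron arrays. For Syt6, probe A_55_P1965219 had levels of 1.75 and 1.57 in knockout-labelled and 2.23 and 1.93 in wild-type-labelled motor neurons, against 0.13 and 0.07 in non-motor neurons labelled knockout and wild type. Probe A_55_P2121240 of the same gene ran from -0.12 to 2.03 in motor neurons, against -1.72 and -1.60 in non-motor neurons. Both Syt6 probes separated the fractions, by 1.77 and 2.48.

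Of the members with little calcium binding, Syt4 separated the fractions and Syt11 did not. Syt4 (A_52_P628915) had levels of 1.61 and 1.71 in knockout-labelled and 0.16 and 0.17 in wild-type-labelled motor neurons, against -1.51 and -1.49 in non-motor neurons labelled knockout and wild type. Replicates of this probe lay close together, and the difference between fractions was 2.41. Syt11 (A_55_P1956267) had levels of 2.30 and 3.36 in knockout-labelled and 2.06 and 1.47 in wild-type-labelled motor neurons, against 1.29 and 1.49 in non-motor neurons labelled knockout and wild type. Its lowest motor neuron value lay just under the higher non-motor-neuron value. Of the 2 Syt7 probes, A_51_P359173 was above background on 1 array and A_55_P2044059 on 0, so neither was tested and no fold is given.

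**Figure D1:**
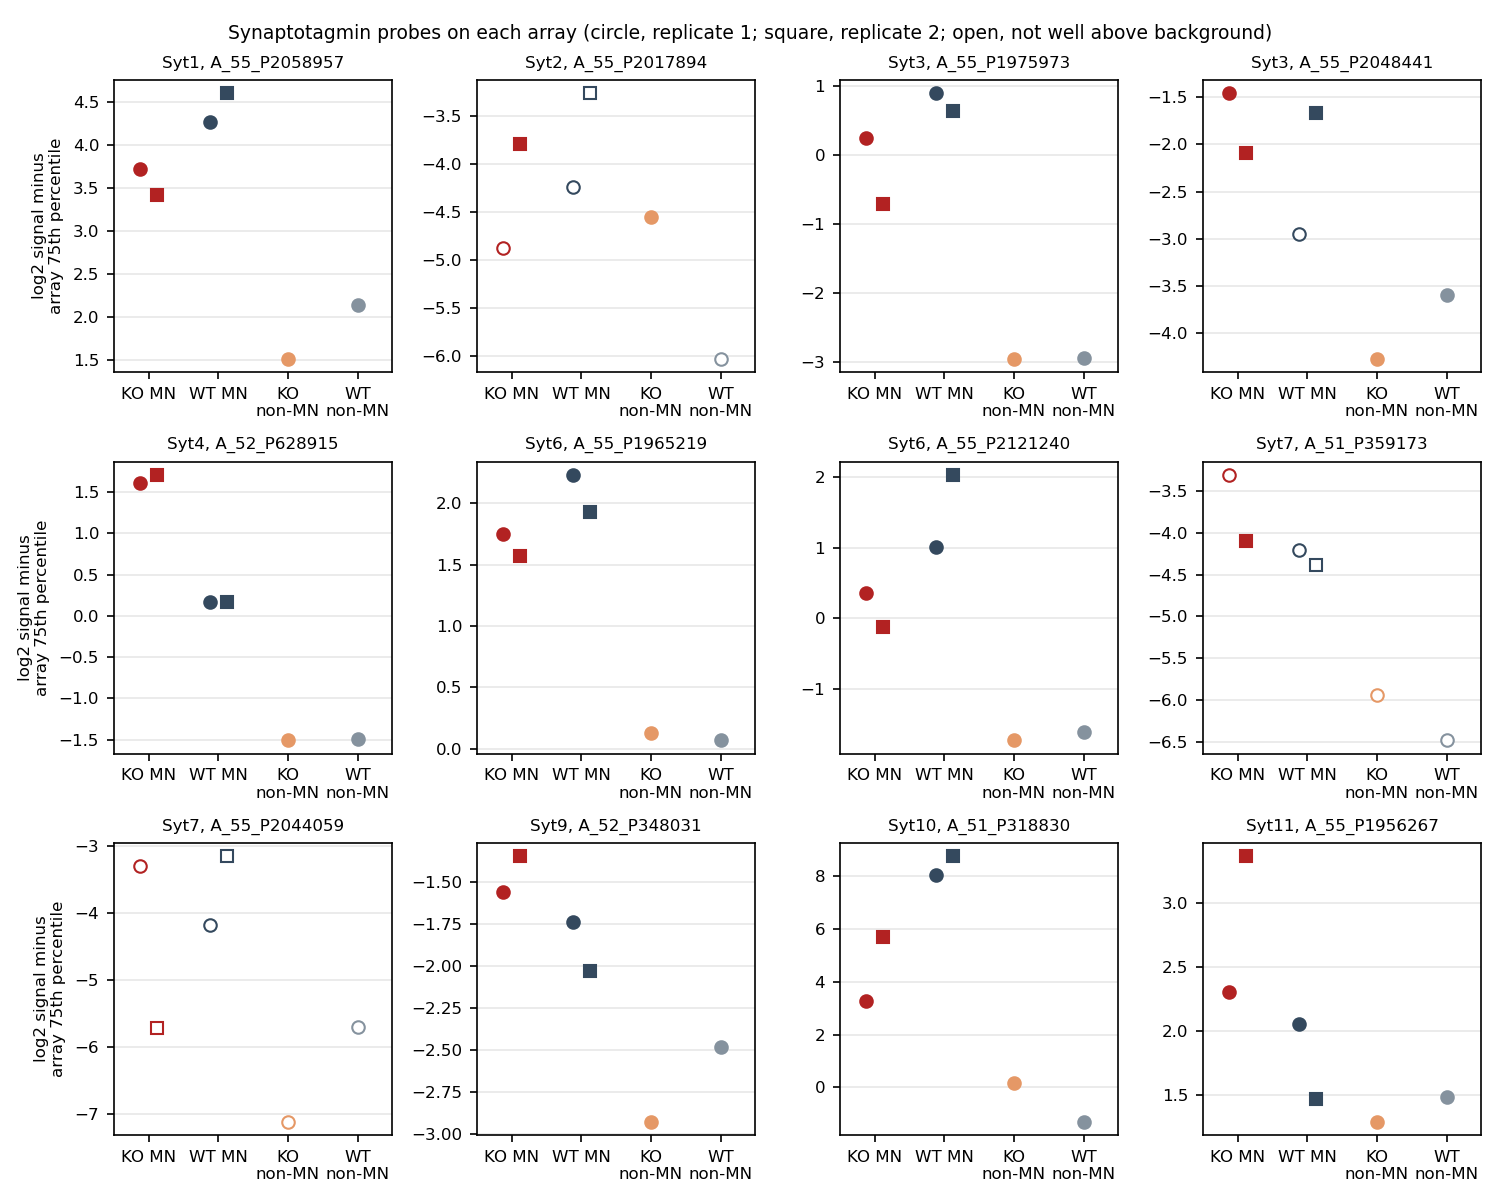
Log2 signal minus the array's 75th percentile (vertical axes, each panel with its own range) of all 12 synaptotagmin probes on each of the 6 arrays, by group. Circles are replicate 1 and squares replicate 2, and open symbols were not well above background; Syt10 sits between 3.25 and 8.73 in motor neurons (MN) and between -1.29 and 0.16 in non-motor neurons.

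**Figure D2:**
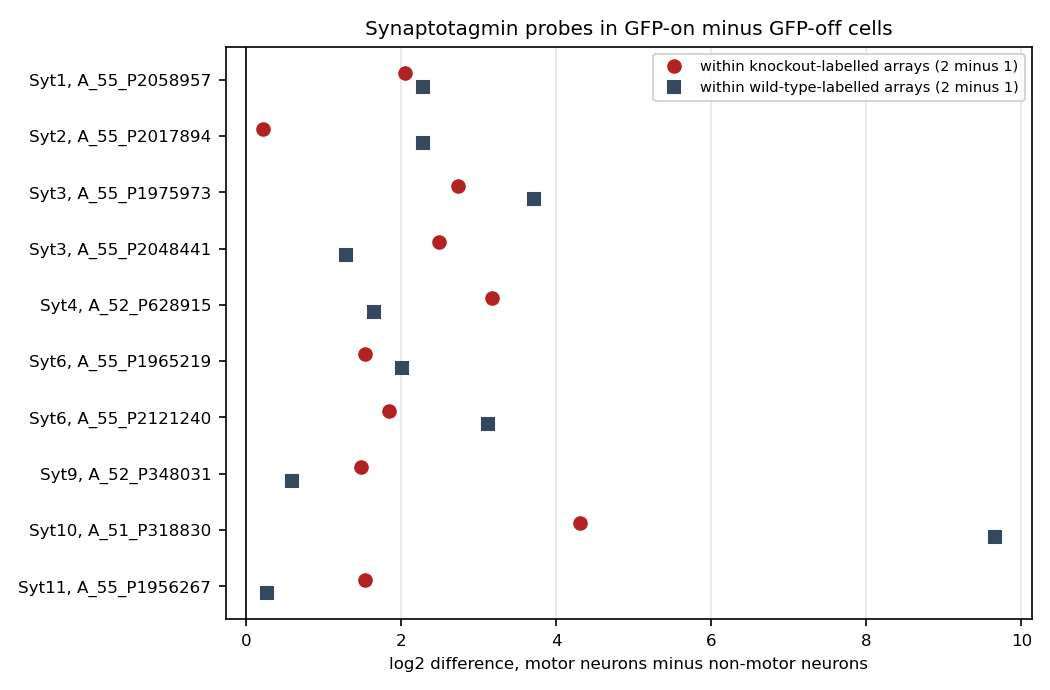
Log2 difference of motor neurons minus non-motor neurons (horizontal axis) for the 10 tested synaptotagmin probes, drawn separately for each genotype label, with the mean of 2 motor neuron arrays set against 1 array of GFP-off cells. All points lie right of 0, and the Syt10 points at 4.31 (knockout-labelled) and 9.66 (wild-type-labelled) are the farthest right of their label.

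Other cell types differed between the sorted fractions too. Of 9 general neuronal markers 6 were higher in motor neurons by the rule used for the synaptotagmins, with summed levels of 247 to 395 against 91.9 and 121 in non-motor neurons. Of 7 neural crest and sensory neuron markers 5 were higher (34.8 to 80.9 against 7.68 and 8.31), and all 7 erythroid markers were lower (243 to 574 against 1352 and 1457). Their part in the synaptotagmin differences was not tested.

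Between genotype labels in motor neurons, Syt10 was lower and no other synaptotagmin passed the test. Tested with limma, which pools the spread between replicates across all probes, with Benjamini-Hochberg adjustment over 33264 probes and a threshold of 0.05, 1 of 10 synaptotagmin probes was called lower and 0 higher; 3 were at an unadjusted p under 0.05. Over all probes 24.8% were called, 10.6% higher and 14.2% lower, so the number of called members is no result about the family. The 2 labels did not overlap for 8 of the 10 synaptotagmin probes, and for 69.5% of all probes. The median difference was -0.50 over the synaptotagmin probes and -0.20 over all probes. Of all calls 42.7% were higher as reported, against 73.9% when arrays were scaled to their median, 80.1% after quantile normalization and 67.8% after normexp background correction; the median of all probes moved to 0.44, 0.06 and -0.45 under these settings.

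Syt10 averaged 4.46 ± 1.71 in knockout-labelled and 8.37 ± 0.51 in wild-type-labelled motor neurons (SD, n = 2 each), a difference of -3.91 ± 0.77 (SE from limma, adjusted p = 0.0139). Both knockout-labelled arrays lay under both wild-type-labelled arrays. The motor neuron levels used here also entered the choice of the family, so the test is not independent of that choice. The direction was the same under all alternatives tried. The call was lost after quantile normalization (-3.56, adjusted p from limma 0.0663), with dim probes kept (0.153), in an additive model over all arrays (-2.12, 0.168), with spike-in signal as a covariate (-6.96, 0.109) and without wild-type-labelled motor neuron replicate 2 (-3.55, 0.0556).

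Syt4 had the next largest absolute difference, 1.49 ± 0.51 (SE), higher in both knockout-labelled than in both wild-type-labelled arrays, with an adjusted p of 0.0571 from limma. It passed the threshold when arrays were scaled to their median (2.13, adjusted p from limma 0.0092), among probes above background on all 6 arrays (0.0276) and with 1 probe per gene (0.0482). The 2 Syt6 probes gave -0.42 ± 0.51 and -1.40 ± 0.57 (SE); the second (A_55_P2121240), with levels of 0.36 and -0.12 against 1.01 and 2.03, had an adjusted p of 0.0965 from limma. It passed among probes above background on all 6 arrays (adjusted p from limma 0.0484) and without wild-type-labelled motor neuron replicate 1 (-1.91, 0.0326).

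The other members had adjusted p-values from limma of 0.191 or more. Syt1 gave -0.86 ± 0.52 and Syt11 1.07 ± 0.58 (SE), both without overlap between labels; Syt11 passed when arrays were scaled to their median (1.71, adjusted p from limma 0.0418). The 2 Syt3 probes had opposite signs, -1.0 ± 0.56 and 0.53 ± 0.60 (SE), and the dimmer, positive one turned to -0.44 after normexp background correction. Syt9 gave 0.43 ± 0.51 and Syt2 -0.59 ± 0.61 (SE). These probes lay near background in motor neurons, and both changed sign under other settings.

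**Figure D3:**
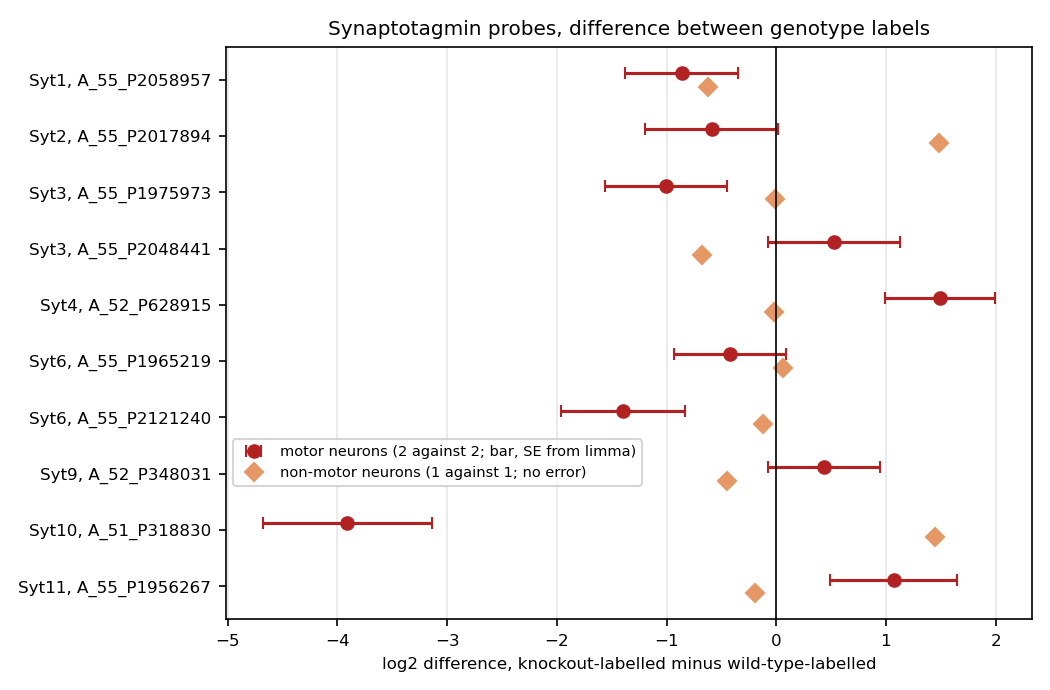
Log2 difference of knockout-labelled minus wild-type-labelled arrays (horizontal axis) for the 10 tested synaptotagmin probes, in motor neurons (circles, 2 against 2 arrays, bars are SE from limma) and in non-motor neurons (diamonds, 1 against 1, no error). Syt10 lies at -3.91 in motor neurons and at 1.45 in non-motor neurons.

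**Figure D4:**
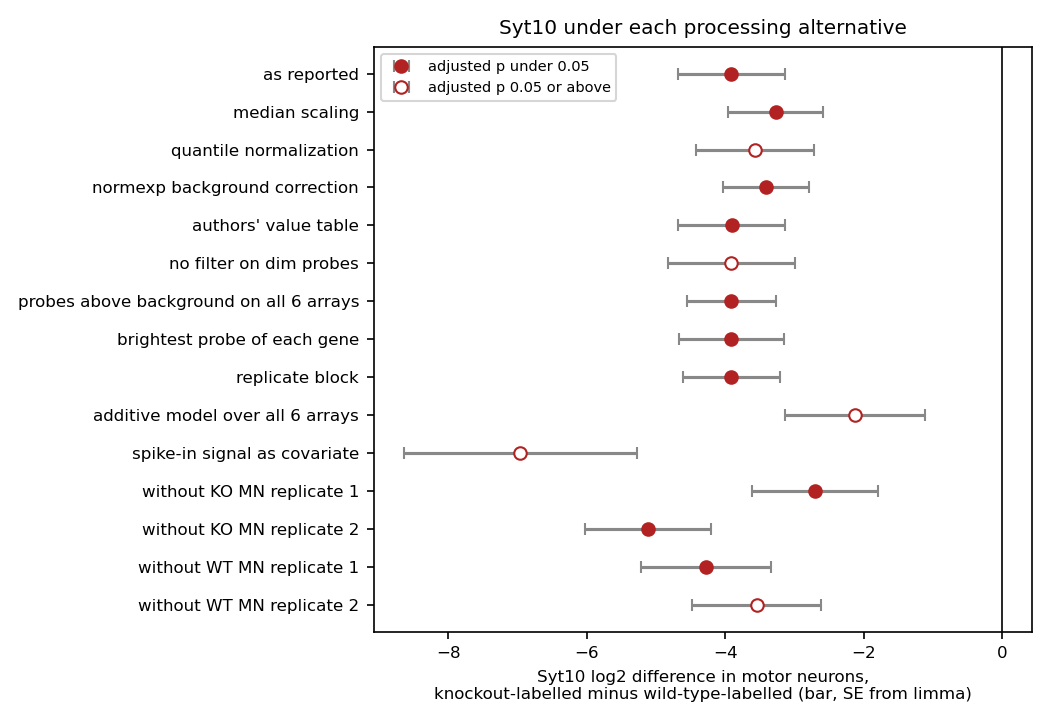
Log2 difference of Syt10 between knockout-labelled and wild-type-labelled motor neurons (horizontal axis, bars are SE from limma) as reported and under each alternative processing or left-out array. All points lie under 0, between -6.96 and -2.12; open points had an adjusted p of 0.05 or above.

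Other markers moved with the genotype label as well. Of 9 microglia and macrophage markers 6 were called higher in knockout-labelled motor neurons by the same fit, with summed levels of 25.2 and 27.6 against 8.65 and 13.3; 3 were called after quantile normalization and 0 after normexp background correction. Of the 8 motor neuron markers 4 were called higher and 0 lower, and of 8 measured progenitor markers 3 were higher and 0 lower (summed levels 130 and 152 against 81.4 and 63.1). Over all probes 10.6% were called higher and 14.2% lower. Differences were negative, without a call, for Lhx4 (-0.35), Chat (-0.34), Nes (-0.98), Pax6 (-0.63) and Mki67 (-0.50). In each of the marker lists of this paragraph 0 were called with dim probes kept, in the additive model or with the spike-in covariate. The part of these markers in the Syt10 difference was not tested.

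In non-motor neurons, with 1 array per label and so no test, 2 of the 10 synaptotagmin probes were higher by at least 1 log2 on the knockout-labelled array and 0 were lower; among all probes 2.69% were higher and 5.99% lower. Syt10 was 1.45 higher. For Syt2, which was not well above background on the wild-type-labelled array, the signal on the knockout-labelled array was at least 1.33-fold higher, a bound set against the lowest signal called well above background. Syt1 differed by -0.63, Syt9 by -0.45 and the dimmer Syt3 probe by -0.68. The other probes, of Syt3, Syt4, Syt6 and Syt11, differed by -0.20 to 0.06.

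The difference of Syt10 between labels had opposite signs in the sorted fractions. The interaction of label and fraction, fitted with limma for every probe, uses the levels of both fractions, which entered the choice of the family. It has 1 array per label in non-motor neurons. For Syt10 it was -5.36 ± 1.34 (SE, unadjusted p = 0.003, limma), with an adjusted p of 0.528, so it did not pass. Over all probes the limma interaction called 0 (0%), and 8.44% were at an unadjusted p under 0.05; of the synaptotagmin probes 0 were called and 1, Syt10, was at an unadjusted p under 0.05. The Syt10 interaction was past the threshold when arrays were scaled to their median (-4.98, adjusted p from limma 0.0281) and with the replicate block. It was -6.57 without knockout-labelled motor neuron replicate 2, a setting that leaves 1 array in 3 of the 4 groups. None of these settings is taken as support. The test assumes that the single non-motor-neuron arrays vary like the motor neuron arrays.

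Members differed in how closely they followed Syt10 across the 6 arrays. Pearson's r with Syt10 was 0.94 and 0.92 for the Syt6 probes, 0.92 for Syt1, 0.91 and 0.64 for the Syt3 probes, 0.85 for Syt2, 0.63 for Syt9, 0.58 for Syt4 and 0.33 for Syt11. Syt2 was above background on only 2 of the 6 arrays, so its r rests mostly on background signal. Syt4 correlated more closely with Syt9 (0.95) and Syt11 (0.83). These are descriptions over 6 arrays that share their groups and their brightness. Among 14917 other genes, each by the probe that followed Syt10 most closely, 312 had an r of at least 0.9 with Syt10. The 5 highest were Trim8 (0.996), Maml3 (0.994), Nr2f1 (0.993), Kazn (0.990) and Prm1 (0.988). Trim8 encodes a tripartite motif ubiquitin ligase, Maml3 a coactivator of Notch signalling, Nr2f1 an orphan nuclear receptor and Prm1 a sperm protamine. Their levels varied much less than those of Syt10, except for Prm1: Nr2f1 had levels of 5.23 and 5.40 in knockout-labelled and 5.69 and 5.74 in wild-type-labelled motor neurons, against 5.01 and 4.91 in non-motor neurons labelled knockout and wild type. Prm1 had levels of -2.59 (not well above background) and -0.95 in knockout-labelled and 2.0 and 2.71 in wild-type-labelled motor neurons, against -4.93 and -5.28, neither well above background, in non-motor neurons.

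The other genes of calcium-triggered release were taken as 3 lists, each gene by its brightest tested probe. Beside the counts of all 3 lists stand those of all 14918 genes taken this way. Of these, 1005 were higher and 1449 lower in motor neurons by at least 1 log2 without overlap. Of 18 further synaptotagmins and relatives 13 were measured. Of these 2 were higher in motor neurons by at least 1 log2 without overlap, Syt16 (1.60) and Rph3a (2.25), a Rab3 effector with paired calcium-binding domains; 2 met the rule for lower, the Rab27 effector Sytl2 and the extended synaptotagmin Esyt3. Sytl2 had levels of -2.39 and -1.04 in knockout-labelled motor neurons and was not well above background in wild-type-labelled ones, against 0.26 and -0.40 in non-motor neurons labelled knockout and wild type. Esyt3 had levels of -3.42 and -3.01 in non-motor neurons, under the lowest level that the 3 dim motor neuron arrays could measure, so its direction is not settled. Rph3a had levels of -4.50 and -3.96 in non-motor neurons, which those arrays could not have shown either. Its signal of -2.72 in wild-type-labelled motor neuron replicate 1 was under the lowest level measured there, -2.10. On the brighter knockout-labelled motor neuron replicate 2 it was -2.60. Between labels in motor neurons limma called 3 higher (Esyt2, Sytl2 and Doc2b) and 1 lower (Sytl1, -1.64). Esyt2, a tether between endoplasmic reticulum and plasma membrane, had levels of 0.54 and 1.09 in knockout-labelled motor neurons and was not well above background in wild-type-labelled ones (-2.08 and -4.19), which makes it at least 8.04-fold higher (adjusted p from limma 0.0114). The bounds were at least 1.40-fold for Sytl2 (adjusted p from limma 0.0185) and at least 2.87-fold for Doc2b (0.0446). An adjusted p beside a bound, here and below, is that of the limma difference, which takes signals under background as they stand. The bounds themselves were not tested. Sytl4 had a difference of 1.80 and did not pass (0.055).

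Of 20 genes of the release machinery 19 were measured; 7 of them were higher in motor neurons and 0 were lower, and their median difference was 1.38. The active zone genes Rims2 (2.11) and Pclo (1.98) were among the higher ones. Rims2 had levels of -4.58 and -3.20 in non-motor neurons, under the lowest level that the 3 dim motor neuron arrays could measure. Its signal of -2.34 in wild-type-labelled motor neuron replicate 1 was under the lowest level measured there, -2.10. Snap25, the plasma membrane SNARE, differed by 2.39 with overlap between the fractions: its levels were 7.46 and 5.28 in knockout-labelled and 8.68 and 9.46 in wild-type-labelled motor neurons, against 5.16 and 5.50 in non-motor neurons labelled knockout and wild type. Between labels in motor neurons limma called 3 genes of this list higher and 2 lower, with a median difference of 0.34. Snap25 (-2.70 ± 0.74, adjusted p from limma 0.0309) and the active zone scaffold Rims1 (-2.31 ± 0.58, 0.025; SE) were lower, as was Syt10. Complexin 1 (Cplx1, 3.29 ± 0.58, adjusted p from limma 0.0106), the vesicle SNARE Vamp2 (2.09 ± 0.51, 0.0224; SE) and the SNARE syntaxin 1A (Stx1a, at least 3.45-fold, 0.0164) were higher.

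All 15 synaptic vesicle genes were measured; 9 of them were higher in motor neurons and 0 were lower, and their median difference was 1.60. The largest were the vesicular acetylcholine transporter Slc18a3 (3.48), the synapsin Syn1 (3.27), the clathrin adaptor Snap91 (2.42) and Synpr (2.25). Slc18a3 had levels of 1.82 and 1.5 in knockout-labelled and 1.54 and 0.85 in wild-type-labelled motor neurons, against -2.09 and -2.02 in non-motor neurons labelled knockout and wild type. Syn3 and Sv2c, also counted as higher, were dim, and Syn3 was above background on only 2 arrays. In non-motor neurons Syn3 had signals of -5.45 and -4.29, and Sv2c -4.46 and -4.13. The 3 dim motor neuron arrays could not have shown levels that low. Between labels in motor neurons limma called 3 higher and 2 lower, with a median of 0.06. The vesicular glutamate transporter Slc17a6 (3.28 ± 0.56, adjusted p from limma 0.0102), Sv2a (at least 7.0-fold, 0.00994) and Sv2b (at least 1.11-fold, 0.018) were higher. For Sv2a and Sv2b limma tested differences of 3.03 and 2.32 and not the bounds. Neither gene was above background in wild-type-labelled motor neurons. Syngr3 (-2.38 ± 0.52, adjusted p from limma 0.0173) and Dnajc5 (-2.02 ± 0.55, 0.0304; SE) were lower.

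Between labels, 14 of the 47 measured genes of the 3 lists were called in all, beside 24.8% of all probes and 23% of all genes with 1 probe per gene, so these counts are no result about the lists. Of these 12 were called with the same sign under median scaling, 5 after quantile normalization, 4 after normexp background correction and 0 with dim probes kept, in the additive model or with the spike-in covariate. Leaving out knockout-labelled motor neuron replicate 2 kept 5 of the calls and leaving out wild-type-labelled motor neuron replicate 2 kept 8. Sv2b turned to -0.16 under normexp and Snap25 to 1.15 with the spike-in covariate; the other 12 kept their sign wherever they were tested. The median of each list took both signs over the settings and left-out arrays: it ran from -0.26 to 0.45 for the further synaptotagmins, from -0.06 to 0.98 for the release machinery and from -0.24 to 0.70 for the vesicle genes.

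**Figure D5:**
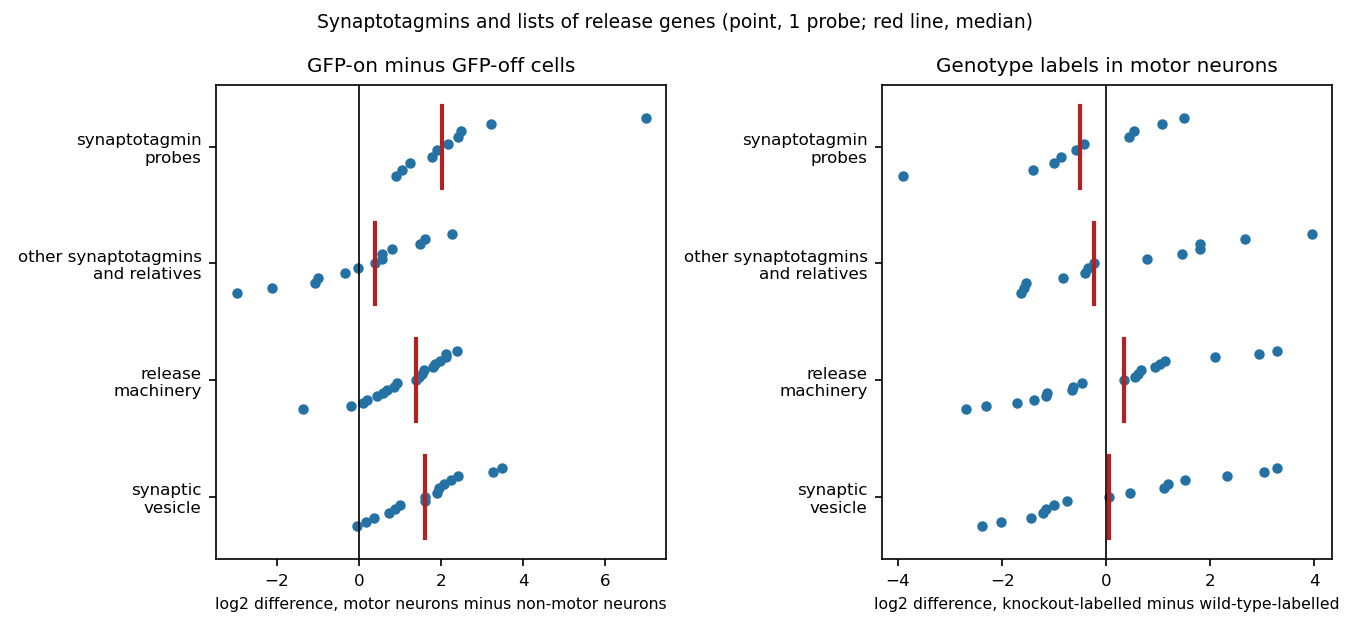
Log2 difference (horizontal axes) of motor neurons minus non-motor neurons (left) and of knockout-labelled minus wild-type-labelled motor neurons (right) for the synaptotagmin probes and 3 lists of release genes; each point is a probe and red lines are medians. On the left the medians are 2.03, 0.40, 1.38 and 1.60 from top to bottom, and Syt10 at 6.99 lies farthest right; on the right they are -0.50, -0.24, 0.34 and 0.06, and Syt10 at -3.91 lies farthest left.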

How the data were processed

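Transcript levels were measured on 6 one-colour arrays. Scans were read out by Agilent Feature Extraction, version 10.5.1.1 per the file headers and 9.1 per the submitters' processing notes. The deposited processed signal is an intensity, background-subtracted and with no scaling between arrays, per the file headers; flags of other kinds mark spots above background, saturated (0 here) or irregular. The authors' deposited values are log2 levels, which match those computed here within 0.01 for 100% of values.

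Here, log2 processed signals were averaged over the unflagged spots of a probe, and the 75th percentile of the array over probes was subtracted. Probes were named through RefSeq accessions in a table of GRCm38.p6 (26300 of 55681 matched); the headers name another build, so probe coordinates are not used here. Probes were fitted with limma 3.58.1 in R 4.3.3 (lmFit, eBayes, 4 group means, 2 residual degrees of freedom). An exact permutation test of 2 against 2 arrays cannot go below 0.333, so calls rest on the pooled spread, and the number of arrays limits precision. Scripts were tested on simulated data. Where no array of a group rose above background, a fold is a bound against the lowest signal well above background, or the probe's own signal where higher. Bounds were not tested, and an adjusted p beside one belongs to the difference of the signals as measured.

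The members, the lists and the tests were chosen with earlier results of these data known. Named genes are all members, the 5 genes with the highest r with Syt10, and in each list the up to 4 genes with the largest absolute difference per comparison; Syt10's r was taken over probes above background on at least 2 arrays. Vamp2, Sytl1, Dnajc5 and Esyt3 were added after their values were seen. Replicate numbers were not used as a block: the correlation of deviations of same-numbered motor neuron arrays was -0.10, over 2 pairs. Alternatives covered scaling, background correction, filters, probe choice, models and left-out arrays. Syt5 was not analysed here.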

Additional observations from a re-analysis of the deposited data

How the results depend on the processing

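All alternatives were run. Over all probes, as reported, limma called 3524 higher and 4733 lower between genotype labels in motor neurons, and 13782 were at an unadjusted p under 0.05; of the synaptotagmins 0 were higher and 1, Syt10, lower. Scaling to the median gave 7282 higher and 2569 lower, with 2 synaptotagmin probes higher. Quantile normalization gave 1578 and 392, with 0 synaptotagmin probes lower. Normexp gave 903 and 429. With no filter limma gave 0 and 0 (11502 at an unadjusted p under 0.05), and so did the additive model (11192); the spike-in covariate gave 6 and 16 (1313), and in these 3 settings 0 synaptotagmin probes were lower. Probes above background on all 6 arrays gave 1 synaptotagmin probe higher and 2 lower, and 1 probe per gene gave 1 higher and, over all genes, 2354 higher and 1080 lower. Leaving out 1 array gave 951 to 5312 higher and 1155 to 6682 lower, and 0 to 2 synaptotagmin probes lower. With the replicate block, Syt10 differed between labels by -3.91 and stayed called; the numbers do not pair the arrays.

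The interaction called 0 probes as reported (2807 at an unadjusted p under 0.05, limma), 130 under median scaling, 1 under normexp, 1 among probes above background on all 6 arrays, 92 with the replicate block and 0 to 76 without 1 array. Syt10 was the 1 synaptotagmin probe called under median scaling and with the replicate block (-5.36, adjusted p from limma 0.00889), and 0 to 1 were called without 1 array. In non-motor neurons 1 synaptotagmin probe in place of 2 was past 1 log2 under normexp and among probes above background on all 6 arrays. The counts of synaptotagmin probes higher in motor neurons than in non-motor neurons stayed within 1.5 times under all settings. For single probes in this comparison, 18 outcomes of a probe under a setting were scored as moved and 128 as the same.

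Signs turned between labels in motor neurons for Syt2 (0.048 under median scaling, 0.17 under quantile normalization, 0.10 in the additive model), Syt6 probe A_55_P1965219 (0.22 under median scaling), Syt3 probe A_55_P2048441 (-0.44 under normexp, and -0.11 to 1.17 without 1 array, the lowest without wild-type-labelled motor neuron replicate 1) and Syt9 (-0.11 under normexp, -0.11 with the spike-in covariate). With that covariate Syt3 probe A_55_P1975973 gave 0.25, Syt6 probe A_55_P2121240 0.090 and Syt11 -0.96. The Syt1 interaction turned to 0.14 under median scaling and 0.14 under normexp, and Syt2 in non-motor neurons to -0.23 under normexp. The cause was not tested. Signal over background limits Syt2, Syt7, Syt9 and the dimmer Syt3 probe.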
